A study of Homo sapiens
Mus musculus and Mus musculus and Homo sapiens with 16 samples.

Results

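BAFF and APRIL are ligands of the TNF superfamily that keep B cells and plasma cells alive, and their receptors are BAFF-R, TACI and BCMA. The genes described here were listed by name. They were the human receptor genes TNFRSF13C (BAFF-R), TNFRSF13B (TACI) and TNFRSF17 (BCMA) and the human BAFF gene TNFSF13B in REC-1 cells, and the mouse BAFF gene Tnfsf13b and mouse APRIL gene Tnfsf13 in MS-5 cells. These are 6 of 107722 genes in the count tables, 4 of 58051 human and 2 of 49671 mouse genes. RNA was sequenced from REC-1, a mantle cell lymphoma line, and MS-5, a bone marrow stromal line of the mouse, with 4 libraries in each group. REC-1 was cultured without stroma (Sep), and in coculture with MS-5 for 24 h it was collected as the suspended fraction (Susp) or as the fraction adhered to MS-5 (Adh), while MS-5 was also cultured alone. No drug or gene alteration is given for any group, and each species is represented by a single cell line. The Adh libraries hold RNA of both species, so their human counts describe adhered REC-1 and their mouse counts describe the MS-5 layer of the coculture. The study describes its RNA-seq replicates as independent experiments, and the labels do not say what a replicate number marks.

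BAFF binds all of these receptors, whereas APRIL binds TACI and BCMA and is also held by heparan sulphate chains. BAFF-R supports survival of mature B cells by recruiting TRAF3, which releases the kinase NIK and the p52 arm of NF-kB. TACI is found on activated and memory-type B cells, and BCMA is typical of plasma cells and is cut from the cell surface by gamma-secretase. In lymphoid tissue, BAFF and APRIL are made mainly by myeloid and stromal cells.

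Totals were 7758979 to 21467832 human counts per REC-1 library and 10097555 to 34615602 mouse counts per library. The lowest human totals were in Adh libraries and the lowest mouse totals in MS-5 cultured alone. Levels are given as CPM, counts divided by library size after scaling by TMM factors, and are compared between genes only as RPKM, which is CPM per kilobase of exon. Low counts were mostly even numbers. Among genes with 1 to 20 counts, a median of 71.4% per library were even (65.0% to 79.2%), as when both reads of a pair are counted. A count of 2 may therefore be a single read pair, and counts are halved and rounded up to pairs where an interval is given. Cell identity was checked with marker genes. The B cell receptor gene CD79A was at 994 ± 71.0, 1248 ± 166 and 1106 ± 96.5 CPM in Sep, Susp and Adh (SD, n = 4). CCND1, the cyclin gene that marks mantle cell lymphoma, was at 1444 ± 260.0, 1672 ± 340.3 and 1441 ± 207 CPM in the same order. The 8 T cell and myeloid markers summed to 4.10 to 8.98 CPM there, with CD2 and FCGR3A at 0. Most of this was CD3E, at 3.27 ± 0.661, 4.77 ± 0.987 and 5.30 ± 1.83 CPM in Sep, Susp and Adh (SD, n = 4), which was not called (Adh against Sep log2 fold change 0.71, edgeR adjusted p = 0.157), and its part in the receptor values was not tested. The 8 stromal markers summed to 3428 to 4090 CPM in the mouse counts, although Thy1 was at 0. The 9 mouse haematopoietic markers summed to 5.02 to 7.91 CPM, and 6 of them had at most 3 counts in any library.

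Because Adh libraries mix species, the reading of the axis across species rests on sequence differences between human and mouse transcripts. A stretch of 90 bases from the last coding exon is shown for BCMA, which had the largest fold difference among the tested genes of the axis. Capitals mark the bases that differ between human and mouse. The sequences were read from GENCODE transcripts, 5' to 3', on the plus strand at chr16:11967701-11967790 (GRCh38) and chr16:11319806-11319895 (GRCm38).
Human TNFRSF17: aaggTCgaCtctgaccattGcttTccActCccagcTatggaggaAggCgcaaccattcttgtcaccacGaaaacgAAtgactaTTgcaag
Mouse Tnfrsf17: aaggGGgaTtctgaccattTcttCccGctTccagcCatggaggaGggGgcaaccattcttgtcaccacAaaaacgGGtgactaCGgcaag

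In this stretch 15 of 90 bases differed between human and mouse BCMA. Over the whole coding sequence, aligned bases were identical between species for 75.7% of BCMA, 74.3% of BAFF, 73.9% of BAFF-R, 72.3% of TACI and 83.7% of APRIL. None of the 531 runs of 25 bases in the human BCMA or BAFF-R coding sequence occurred in the mouse transcript. For TACI this was 0 of 858, for APRIL 1 of 729 and for BAFF 13 of 834. No run of 100 bases in the human coding sequence of any of these genes occurred in the mouse transcript. Human exon bases outside the coding sequence also take counts and were not compared. The coding sequence was 858 of 3059 exon bases for TNFSF13B and 555 of 3923 for TNFRSF13C.

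The receptors were present at very different levels in REC-1. TNFRSF13B was the highest, at 37.3 to 61.5 RPKM over the 12 libraries, and TNFRSF13C followed at 9.03 to 15.5 RPKM. TNFRSF17 was at 0.952 to 3.60 RPKM and TNFSF13B, the human ligand, at 0 to 0.201 RPKM. No library of a gene in this order reached the level of the gene above it. Among 28 genes of the TNF receptor superfamily measured in REC-1, TNFRSF13B had the highest mean (48.8 RPKM), TNFRSF13C ranked 4 (12.5 RPKM) and TNFRSF17 ranked 8 (1.97 RPKM). TNFRSF1B, the receptor TNFR2, was at 41.2 to 53.0 RPKM and overlapped TNFRSF13B, whereas CD40, the receptor for T cell help, was at 19.1 to 26.2 RPKM. RELT, at 3.74 to 9.06 RPKM, was the next receptor outside the axis. In Adh cells, 94.6% of the 15493 protein-coding genes with a count had a lower mean RPKM than TNFRSF13B, 74.6% a lower one than TNFRSF13C, 52.6% a lower one than TNFRSF17 and 13.5% a lower one than TNFSF13B.

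The first question was whether receptor transcripts differ between adhered and suspended REC-1 cells of the same coculture. TNFRSF17 was higher and TNFRSF13C lower in every Adh library than in any Susp library, and TNFRSF13B overlapped. A call needed an edgeR p-value of 0.05 or less after Benjamini-Hochberg adjustment and a difference of 1.5-fold or more. No gene of the axis met both, against 0.778% of the 12861 genes tested. Of the 4 human genes, 3 passed the filter on low counts and 2 of these had an unadjusted p under 0.05, as did 18% of all genes tested. DESeq2 called 1 gene, TNFRSF17, where it called 2.19% of all genes. Libraries did not overlap between Adh and Susp for 11.4% of all genes tested.

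TNFRSF17 (ENSG00000048462, chr16:11965210-11968068, plus strand, GRCh38) encodes BCMA. It was at 3.16, 3.66, 3.08 and 2.05 CPM in Adh replicates 1 to 4, and at 1.73, 1.23, 0.967 and 1.48 CPM in the Susp replicates. In Sep it was at 1.10, 2.68, 1.26 and 1.59 CPM. The lowest Adh library was above the highest Susp library, while Sep replicate 2 was above Adh replicate 4. The log2 fold change between Adh and Susp was 1.16 (SE 0.33, edgeR adjusted p = 0.0978), a 2.24-fold difference that did not pass the threshold. DESeq2 gave 1.18 (SE 0.35, adjusted p = 0.0275), which did. Over all alternatives the log2 fold change lay between 0.95 and 1.30 and the adjusted p between 0.0275 and 0.248. These levels rested on 16 to 42 counts per Adh library and 20 to 26 per Susp library, or 8 to 21 and 10 to 13 read pairs.

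TNFRSF13C (ENSG00000159958, chr22:41922032-41926806, minus strand, GRCh38) encodes BAFF-R. It was at 40.5, 47.9, 39.2 and 35.4 CPM in Adh, at 56.4, 60.9, 52.9 and 51.6 CPM in Susp and at 44.0, 49.5, 57.0 and 51.7 CPM in Sep. All Adh libraries were below all Susp libraries, and Adh replicate 2 was above the lowest Sep library. The log2 fold change was -0.44 between Adh and Susp (SE 0.11, edgeR adjusted p = 0.0662), a ratio of 0.736 that is smaller in size than the minimum fold. The adjusted p ranged from 0.00545 to 0.180 over the alternatives, and the fold stayed under 1.5 in each. It was 0.0159 with DESeq2.

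TNFRSF13B (ENSG00000240505, chr17:16929816-16972118, minus strand, GRCh38) encodes TACI. It was at 141, 174, 169 and 177 CPM in Adh, at 156, 219, 199 and 179.5 CPM in Susp and at 133, 184, 168 and 179.5 CPM in Sep. The ranges overlapped between all groups. The log2 fold change between Adh and Susp was -0.19 (SE 0.12, edgeR adjusted p = 0.420), and the mean was 166 ± 16.5 CPM in Adh and 188 ± 26.8 CPM in Susp (SD, n = 4). Of its 3554 annotated exon bases, 82.7% lie outside the exons of other genes.

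**Figure D1:**
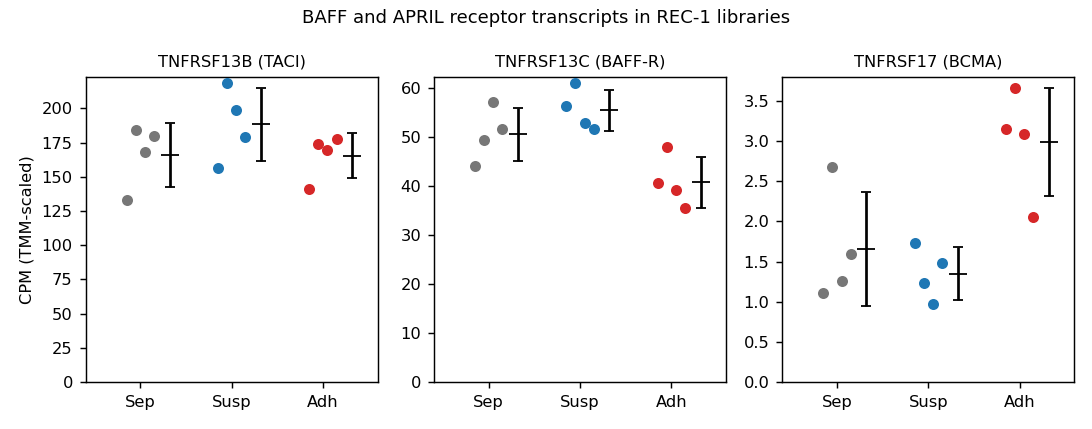
Points show the TMM-scaled CPM of each REC-1 library for TNFRSF13B, TNFRSF13C and TNFRSF17, by group, with the mean and SD of 4 libraries beside them in black. Every Adh point lies above every Susp point for TNFRSF17, from 2.05 CPM against at most 1.73 CPM, and below every Susp point for TNFRSF13C, at most 47.9 CPM against at least 51.6 CPM.

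Susp and Sep cells were compared to describe how suspended cells of the coculture differ from cells cultured without stroma. The study maintained lymphoma lines in RPMI medium and cocultures under the conditions of the stromal cells, in another medium. It does not state the medium of the Sep cultures. If the media differed, an effect of medium cannot be told apart from that of coculture in any comparison with Sep. None of the 3 tested genes was called, against 0.731% of all genes tested. None had an unadjusted p under 0.05, against 16.7% of all genes, or was called by DESeq2, against 1.34%. The log2 fold change was 0.13 for TNFRSF13C (SE 0.11, edgeR adjusted p = 0.528), 0.18 for TNFRSF13B (SE 0.12, edgeR adjusted p = 0.438) and -0.31 for TNFRSF17 (SE 0.34, edgeR adjusted p = 0.645). The value of TNFRSF17 was 0.0240 without Sep replicate 2, its highest Sep library. Libraries overlapped for all of these genes, and did not for 11.3% of all genes tested.

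Adh cells were also compared with Sep cells, the culture without stroma. Again 0 of 3 genes were called by edgeR or by DESeq2, where edgeR called 2.4% of all genes tested, libraries did not overlap for 15.7%. Of the 3 genes, 2 had an unadjusted p under 0.05, as did 20.2% of all genes. DESeq2 called 4.1% of all genes here. The log2 difference was 0.85 for TNFRSF17 (SE 0.33, edgeR adjusted p = 0.160) and -0.31 for TNFRSF13C (SE 0.11, edgeR adjusted p = 0.131). TNFRSF13B was at 166 ± 23.4 CPM in Sep (SD, n = 4), a log2 difference from Adh of -0.01 (SE 0.12, edgeR adjusted p = 0.984). The sign of the TNFRSF13B value turned positive under several alternatives, among them counts thinned to the smallest library, where it was 0.00696. The comparisons with Adh share the Adh libraries, and the comparisons with Sep share the Sep libraries, so these values are not independent of each other.

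**Figure D2:**
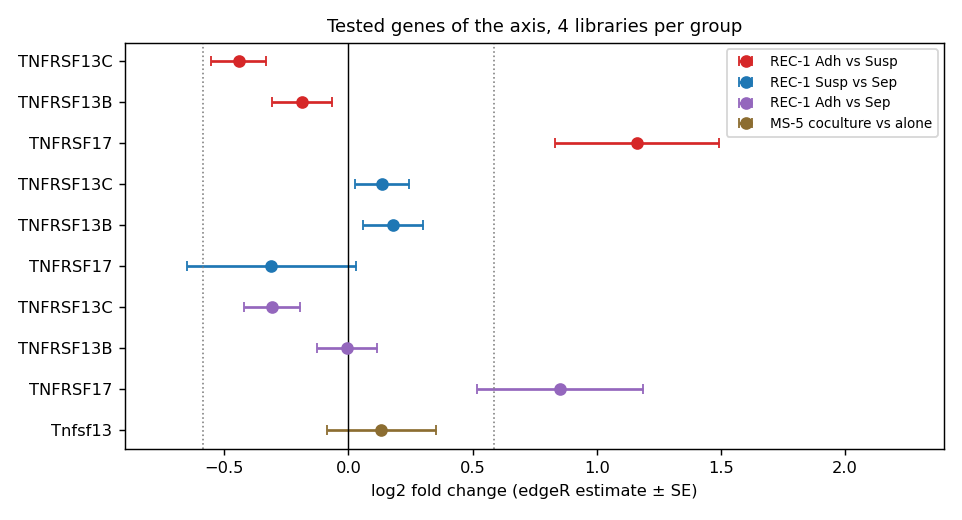
Points show the log2 fold change estimated by edgeR for each gene of the axis that passed the filter on low counts, with SE as bars and 1 colour per comparison. The dotted lines mark a fold change of 1.5. TNFRSF17 between Adh and Susp, at 1.16, lies farthest from 0, and both TNFRSF17 values for Adh cells lie beyond the dotted line.

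The receptor mix was described as the part of the summed RPKM of the 3 receptor genes that came from each gene. TACI transcripts made up 76.2% ± 1.29 in Sep, 77.2% ± 2.78 in Susp and 77.7% ± 3.22 in Adh cells (SD, n = 4). BAFF-R made up 21.1% ± 2.01, 20.8% ± 2.15 and 17.4% ± 2.13 in the same order. BCMA made up the least. Its share was 5.84%, 5.56%, 5.01% and 3.32% in the Adh libraries, 2.83%, 1.55%, 1.35% and 2.24% in the Susp libraries and 2.19%, 3.93%, 1.96% and 2.41% in the Sep libraries. All Adh shares were above all Susp shares, and Sep replicate 2 was above Adh replicate 4. The BCMA share was 2.94 percentage points higher in Adh than in Susp cells (two-sided exact permutation p = 0.0286, the smallest p possible with 4 against 4 libraries, adjusted over 3 pairs p = 0.0857). It was 2.31 points higher in Adh than in Sep cells (exact permutation p = 0.0571, adjusted p = 0.0857). The difference between Susp and Sep was -0.63 points (exact permutation p = 0.371, adjusted p = 0.371). None of the 3 differences passed 0.05 after adjustment. A difference in 1 pair alone could not have passed, as the smallest permutation p of 0.0286 becomes 0.0857 when adjusted over 3 pairs. The share uses the same counts as the fold changes and is not a separate measurement.

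**Figure D3:**
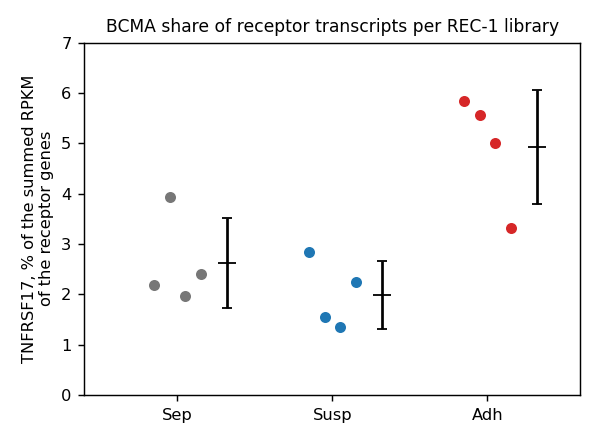
Points show TNFRSF17 as a percent of the summed RPKM of TNFRSF13B, TNFRSF13C and TNFRSF17 in each REC-1 library, with the group mean and SD of 4 libraries in black. Adh libraries lie between 3.32% and 5.84%, and Susp libraries between 1.35% and 2.83%.

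The human BAFF gene was near the limit of detection in REC-1. TNFSF13B (ENSG00000102524, chr13:108251240-108308484, plus strand, GRCh38) had 1, 0, 4 and 6 counts in Sep, 3, 10, 4 and 2 counts in Susp and 0, 2, 0 and 0 counts in Adh replicates 1 to 4. Adh replicate 2 was the only Adh library with counts, and its 2 counts may be 1 read pair. A count of 0 does not mean absence. The level of 3 counts was 0.226 to 0.385 CPM in the Adh libraries with no counts, and a bound in read pairs would be higher. The gene did not pass the filter on low counts and was not tested. In pairs, scaled to library size, the ratio of Adh to Susp was 0.170 (exact 95% interval 0.00393 to 1.198) from 1 against 10 pairs, and that of Susp to Sep was 1.16 (0.383 to 3.90). These intervals cover counting error only, and both include 1. With no filter, the log2 fold change between Adh and Susp was -2.30 (SE 1.26, edgeR adjusted p = 0.458). A difference of human BAFF between groups was not detectable at this depth.

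The stromal side of the axis was read from the mouse counts, comparing MS-5 in the Adh fraction with MS-5 cultured alone. Neither mouse ligand gene was called. Tnfsf13 was the only ligand gene to pass the filter, its unadjusted p was 0.555, DESeq2 did not call it, and 0.205% of the 12201 mouse genes tested were called. An unadjusted p under 0.05 was found for 11.3% of them, and DESeq2 called 0.311%. Tnfsf13 (ENSMUSG00000089669, chr11:69682846-69685784, minus strand, GRCm38) was at 2.51, 2.19, 2.03 and 2.11 CPM in MS-5 alone and at 2.81, 2.79, 2.16 and 1.94 CPM in Adh replicates 1 to 4. The groups overlapped, as Adh replicate 4 was the lowest library and Adh replicate 1 the highest, whereas 6.74% of the mouse genes did not overlap. The log2 fold change was 0.13 (SE 0.22, edgeR adjusted p = 0.883).

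The APRIL value covers only a part of its gene. Tnfsf13 shares exons with Tnfsfm13, an annotated readthrough gene that joins Tnfsf12 (TWEAK) to Tnfsf13, and with Tnfsf13os on the other strand. Of 1637 exon bases of Tnfsf13, 654 (40.0%) belong to no other gene. A read that falls on exons of more than 1 gene is left out under the usual setting of the counter, and strand use is not given, so the count of Tnfsf13 may be too low and its RPKM uncertain. Tnfsfm13 itself had 6 to 15 counts per library in MS-5 alone and 12 to 30 in Adh.

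**Figure D4:**
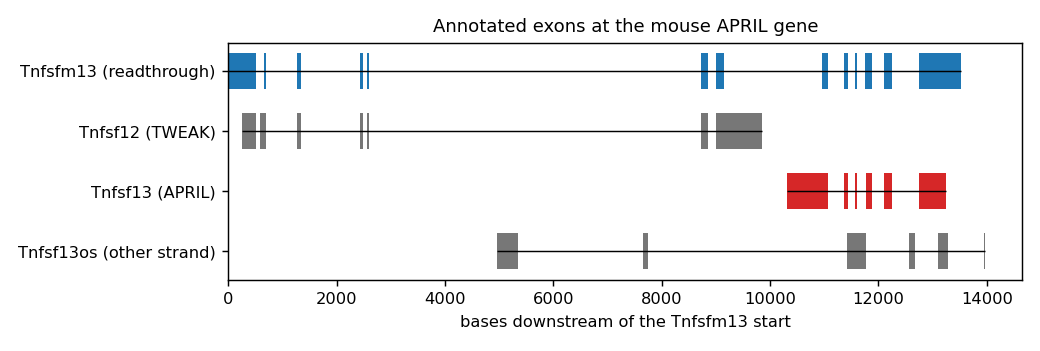
Boxes show annotated exons of 4 genes at the mouse APRIL gene, by distance in bases from the start of the readthrough gene Tnfsfm13, with each gene on its own line. The Tnfsfm13 exons lie over exons of both Tnfsf12 and Tnfsf13, which leaves 40.0% of the Tnfsf13 exon bases to that gene alone.

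Mouse BAFF was also near the limit of detection. Tnfsf13b (ENSMUSG00000031497, chr8:10006467-10039072, plus strand, GRCm38) had 4, 0, 4 and 4 counts in MS-5 alone and 4, 10, 12 and 12 counts in Adh replicates 1 to 4. Scaled to library size these are 0.279, 0, 0.231 and 0.313 CPM against 0.118, 0.340, 0.345 and 0.381 CPM. The groups overlapped, with Adh replicate 1 below all but the library at 0. It did not pass the filter, and the ratio of Adh to MS-5 alone was 1.33 in pairs (exact 95% interval 0.511 to 4.07). Per kilobase, Tnfsf13 was at 1.18 to 1.71 RPKM and Tnfsf13b at 0 to 0.0555 RPKM, so all Tnfsf13 libraries were above all Tnfsf13b libraries. Among 18 mouse genes of the TNF ligand family, Tnfsf13 ranked 4 and Tnfsf13b ranked 6. Eda, the ligand ectodysplasin, had the highest mean at 6.87 RPKM, followed by Tnfsf12 at 6.52 RPKM and Tnfsf9, the ligand of 4-1BB, at 2.86 RPKM. These are means over the 8 libraries with mouse counts. Eda and Tnfsf12 overlapped, at 6.09 to 7.32 and 5.22 to 8.05 RPKM. Exons of Tnfsf12 are also shared with Tnfsfm13, so its count may be too low as well. None of these 3 ligand genes was called, and their log2 fold changes were 0.08, 0.12 and -0.05. A total of 9 of the 18 genes had no count in any library, among them Cd40lg and Tnfsf10.

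**Figure D5:**
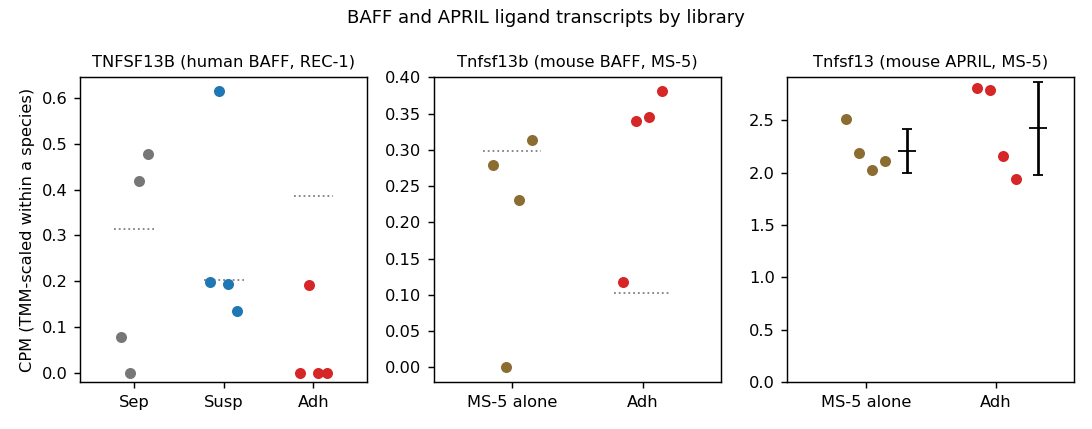
Points show TMM-scaled CPM of each library for human TNFSF13B in REC-1 and for mouse Tnfsf13b and Tnfsf13 in MS-5. Dotted lines mark the level of 3 counts in the smallest library of the group, and black bars show the mean and SD of 4 libraries for Tnfsf13. The 3 Adh libraries of TNFSF13B without counts lie at 0, and Tnfsf13b stays at or below 0.381 CPM.

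In the Adh libraries, where both species were sequenced together, BAFF counts came mainly from the mouse gene, as did counts over all genes. The mouse gene took 4 of 4, 10 of 12, 12 of 12 and 12 of 12 BAFF counts in Adh replicates 1 to 4. The mean mouse share was 95.8% ± 8.33 (SD, n = 4). In total 19 of 20 pairs were mouse, or 95.0% (Wilson 95% interval 76.4% to 99.1%), and the mean share was 92.3% when counts were divided by exon length. The Adh libraries held more mouse than human counts in all, between 29495404 and 34615602 against 7758979 to 13241751. A mainly mouse share was therefore not particular to BAFF, and its size was not tested against these totals. The share describes the RNA of the mixed culture and not the level per cell. In bulk RNA, fewer cells of a type and less RNA per cell cannot be told apart. Mouse receptor genes were at or near 0. Tnfrsf13b and Tnfrsf17 had no counts in any of the 8 libraries. Tnfrsf13c had no counts in MS-5 alone and 8 counts over 3 of the 4 Adh libraries, which is 0.495% of the 1617 human TNFRSF13C counts there.

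Human APRIL was counted too. TNFSF13 was at 1.64 ± 0.594 CPM in Sep, 1.52 ± 0.573 CPM in Susp and 1.85 ± 0.713 CPM in Adh cells (SD, n = 4), and the log2 fold change between Adh and Susp was 0.24 (SE 0.39, edgeR adjusted p = 0.759). The readthrough gene TNFSF12-TNFSF13 had no counts, which does not mean absence, as reads on exons of more than 1 gene may be left out. Exon sharing of human TNFSF13 was not measured, so its count may also be too low. The 9 genes that process these proteins (FURIN, which cuts the ligands, ADAM10 and ADAM17, which shed receptors, and the gamma-secretase subunits) were all tested in both species, and none was called in any comparison by edgeR or DESeq2. In REC-1, 0, 2 and 0 of these 9 had an unadjusted p under 0.05 between Adh and Susp, Susp and Sep, and Adh and Sep, and 0 of 9 did in MS-5.

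The signalling genes downstream of the receptors were taken from lists. Between Adh and Susp cells none of the 59 tested genes of the REC-1 lists was called by edgeR or by DESeq2. One of them, TRAF1, is reported by the study as changed on adhesion in both lymphoma lines it compared, at the same thresholds. Here its log2 fold change was 0.87 (SE 0.33, edgeR adjusted p = 0.198). The study also reports more changed REC-1 genes between these fractions than were called here. The edgeR model used here called 100 of 12861 genes, and 281 were called with a block for the replicate number. None of the 59 list genes was called with or without the block. The reason for the differences from the study was not tested. An unadjusted p under 0.05 was found for 3 of 12 genes of the TRAF, cIAP and NIK complex, 0 of 5 NF-kB subunits, 2 of 9 survival effectors, 4 of 8 tested plasma cell genes, 1 of 4 tested heparan sulphate proteoglycans and 3 of 11 tested other TNF receptors, against 18% of all genes tested. Median log2 fold changes of these lists were 0.08, -0.11, 0.03, -0.10, -0.25 and -0.04, against -0.01 for all genes tested. Calls were made only against Sep, for 3 of 59 genes between Susp and Sep, where 0.731% of all genes were called, and 4 of 59 between Adh and Sep, where 2.4% were. In both of these comparisons the medium may differ as well.

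PIM2, a kinase that supports survival of B cells, was higher in both coculture fractions than in Sep. It was at 94.3 ± 4.96 CPM in Sep, 150.2 ± 20.1 CPM in Susp and 164 ± 15.4 CPM in Adh cells (SD, n = 4). Its log2 fold change was 0.67 (SE 0.10, edgeR adjusted p = 0.00296) between Susp and Sep and 0.80 (SE 0.10, edgeR adjusted p = 0.000385) between Adh and Sep. It was 1 of 9 survival effectors called in each comparison, and it was called under every alternative.

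TNFRSF18, the receptor GITR, rose from 0.500 ± 0.358 CPM in Sep to 3.46 ± 1.87 CPM in Susp and 2.62 ± 0.444 CPM in Adh cells (SD, n = 4). The log2 fold changes were 2.74 (SE 0.46, edgeR adjusted p = 0.00590) and 2.33 (SE 0.48, edgeR adjusted p = 0.0134). It was the only called gene of 11 tested other TNF receptors, and the call between Adh and Sep was lost without Sep replicate 2 (adjusted p = 0.0607). Without Sep replicate 4 the log2 fold changes were 3.39 and 2.97, and the gene was not tested where at least 10 counts were required in every library.

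Of 8 tested plasma cell genes, MZB1 rose and DERL3 fell. MZB1, an endoplasmic reticulum protein of antibody-forming cells, was at 62.9 ± 6.46 CPM in Sep, 105 ± 27.3 CPM in Susp and 95.1 ± 10.7 CPM in Adh cells (SD, n = 4). Its log2 fold changes were 0.74 (SE 0.15, edgeR adjusted p = 0.0180) and 0.59 (SE 0.15, edgeR adjusted p = 0.0361), close to the threshold, and most alternatives that left out a Sep or Adh library ended the second call. DERL3, a component of endoplasmic reticulum degradation, fell by 1.23 on the log2 scale between Adh and Sep cells (SE 0.25, edgeR adjusted p = 0.0127), from 7.11 ± 0.599 to 3.09 ± 1.20 CPM. The 6 other tested genes of this list were not called. Neither TRAF, cIAP and NIK genes (0 of 12) nor NF-kB subunits (0 of 5) were called against Sep by edgeR or DESeq2. Unadjusted p-values under 0.05 were found for 1 and 2 genes of the first list and for 2 and 1 of the second, in Susp and Adh cells, against 16.7% and 20.2% of all genes.

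Genes with a profile most like each receptor were sought by Pearson correlation of log2 CPM over the 12 REC-1 libraries, among 9637 genes with a mean of at least 5 CPM. The closest to TNFRSF13C were OPRL1 (r = 0.929), APOBR (0.928) and ARRDC2 (0.909). Those closest to TNFRSF13B were PPP5C (0.975), MRPL12 (0.970) and CYBA (0.969), and those closest to TNFRSF17 were TBC1D30 (0.8286), AP1S3 (0.821) and SYAP1 (0.814). Over the 8 mouse libraries, Slc29a3 (0.980), Pus7 (0.976) and Zfp451 (0.970) were closest to Tnfsf13. The libraries share groups and depth, so these values are a description.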

How the data were processed

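The authors separated human from mouse reads with Xenome, aligned them with STAR 2.5.1b to GRCh38 or GRCm38 and counted reads per gene with featureCounts of Subread 1.5.2, and the deposited values are counts per gene, neither normalized nor filtered. The study states that fragments were counted, but low counts are mostly even. The other 20 columns were not used. Counts were analysed in R 4.3.3 with edgeR 4.0.16 (filterByExpr, TMM, earlier quasi-likelihood form) in 1 model of 12 REC-1 libraries and a separate model of 8 libraries with mouse counts, with Benjamini-Hochberg adjustment over all genes tested. SE is the log2 fold change divided by the root of the F statistic. RPKM and exon sharing used exon unions of GENCODE 44 and M21, which may differ from the annotation of the authors.

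The members and lists were chosen with earlier results of these data known. Context genes were named if called, at most 4 per list and comparison, with the 3 highest genes of each ligand or receptor family and the 3 most alike genes. Cd40lg and Tnfsf10 were named after their values were seen, and TRAF1 because the study reports it. Alternatives included DESeq2 1.42.0, other filters and scalings, thinning, a block for the replicate number and leaving out each library. Chosen after seeing the data were halved counts, the later edgeR form and the block without Susp replicate 2. Code was tested on simulated data.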

Additional observations from a re-analysis of the deposited data

Results flagged for a closer look

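In each group of 4 libraries, 1 library far from the others was looked for (Dixon's ratio of gap to range, at its 95% critical value). The 25 sets searched were the CPM of each gene and the share of each receptor, by group. Chance flags about 1 in 20 sets of normally distributed values, a rate that does not hold for genes with few counts. Human TNFSF13B stood out in Adh replicate 2, at 0.193 CPM where the other Adh libraries were at 0, a difference of 2 counts. It stood out again in Susp replicate 2, at 0.615 CPM against 0.134 to 0.199 CPM, which is 10 counts against 2 to 4. Mouse Tnfsf13b stood out in Adh replicate 1, at 0.118 CPM against 0.340 to 0.381 CPM, which is 4 counts against 10 to 12. Mouse Tnfrsf13c, a receptor gene outside the comparisons, had 8 counts in the Adh libraries and none in MS-5 cultured alone. This was at most 2 read pairs in a library. Mouse totals were also larger in Adh, at 29495404 to 34615602 counts against 10097555 to 17397651 in MS-5 alone, and a difference was not tested.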

How the results depend on the processing

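No gene of the axis was called under the alternatives run, with 1 exception. DESeq2 called 1 gene between Adh and Susp cells, TNFRSF17 (log2 fold change 1.18), and the cause was not tested. Leaving out 1 library at a time gave 0 calls in all comparisons. Below the minimum fold, TNFRSF13C had an adjusted p of at most 0.05 between Adh and Susp with DESeq2 (0.0159), without a low-count filter (0.0195), without Sep replicate 1 (0.0458) and with a replicate block (0.0242, and 0.00545 without Susp replicate 2). Between Adh and Sep it had an adjusted p of 0.0156 with the block without Susp replicate 2. Without Susp replicate 2 and without a block, TNFRSF13C was at -0.38 (adjusted p = 0.0956) and TNFRSF17 at 1.14 (0.128).

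Signs turned for 2 values. TNFRSF17 between Susp and Sep, at -0.31, was -0.466 to 0.0240 when 1 library was left out, with the positive value without Sep replicate 2. TNFRSF13B between Adh and Sep, at -0.01, was 0.00696 in thinned counts, 0.00339 with the replicate block without Susp replicate 2, and -0.0971 to 0.0637 when 1 library was left out, positive without Sep replicate 2, 3 or 4 or Adh replicate 1.

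The BCMA share between Adh and Susp was 2.64 to 3.48 points when 1 library was left out, and 0.870 points from counts in place of RPKM. Between Susp and Sep it was -0.909 to -0.193, the latter without Sep replicate 2, and between Adh and Sep 2.01 to 2.85. The mouse share of BAFF counts was 94.4% to 100% without 1 Adh library. Of the context genes, MZB1 lost its call between Susp and Sep in 4 alternatives and between Adh and Sep in 8, and 2 in place of 4 context genes were called between Adh and Sep with at least 10 counts in every library or without Sep replicate 2.

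Of the 4 replicate numbers, the libraries that share it deviated together (r over 0.1) for 1 between Adh and Susp, 1 between Susp and Sep, 3 between Adh and Sep and 2 in mouse counts, short of all 4 in each comparison. The sample codes group the libraries by number, but the labels do not say what a number marks, so the numbers were not treated as pairs. The block moved the calls among all genes from 100 to 281, 94 to 175, 309 to 384 and 25 to 45 in the same order. With the replicate block 0 genes of the axis were called in each comparison, and TNFRSF17 was at 1.14 (adjusted p = 0.0626) between Adh and Susp and at 0.87 (adjusted p = 0.145) between Adh and Sep. Depth limits TNFSF13B and Tnfsf13b, whose counts of at most 12 per library leave wide intervals.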
